A study of Homo sapiens with 12 samples.

Results

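HMOX1, NQO1, ME1, GCLC, GCLM, TXNRD1, SRXN1, AKR1B10 and AKR1C1 are 9 genes known as targets of NRF2, the transcription factor encoded by NFE2L2. They were chosen by name among the 48162 rows of a table of gene counts. The 9 names matched 10 rows, because SRXN1 has 2 gene models. All 9 genes passed the filter on low counts with 1 row each, and the second SRXN1 row held 0 counts in every library and was not tested.

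The counts come from bulk RNA of Caco-2 spheroids. Caco-2 is a human colorectal adenocarcinoma line with enterocyte features, and cells of passage 26 grew for 5 days in Matrigel, in DMEM with 20% fetal bovine serum, before a 4 h exposure. The 4 groups of 3 libraries each received methotrexate, lactoferrin, methotrexate together with lactoferrin (both agents), or the carrier fluid as control. Methotrexate is an antifolate that inhibits dihydrofolate reductase, and lactoferrin is an iron-binding milk glycoprotein. Doses, and whether the replicates are separate cultures, were not given in the sources used here, so p-values measure only the spread between these libraries, which may be technical.

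NRF2 is held at low levels by KEAP1, an adaptor that presents it to a CUL3 ubiquitin ligase. Oxidants and electrophiles modify KEAP1, NRF2 then accumulates, pairs with small MAF proteins and binds antioxidant response elements near its target genes. In intestinal epithelium the pathway is known for enzymes that make glutathione, regenerate thioredoxin, supply NADPH, reduce quinones and carbonyls, and break down heme.

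Promoter windows from RefSeq, on build GRCh38.p14, run from 250 bases before to 50 bases after the annotated start and gave 8 windows for 7 of the 9 genes, with 2 for TXNRD1. HMOX1 and AKR1B10 had no entry. The core of the antioxidant response element, searched on both strands as TGACNNNGC, was in 4 of the 8 windows (50%), against 4687 of all 35116 promoter windows of the same length (13.3%). These 4 windows belong to ME1, GCLM and TXNRD1, which supplied 2 of them. The genes were chosen as known NRF2 targets, so these shares are a description and not a test. A longer form, in which the core is followed by an A, was in 2 of 8 (25%), against 1118 of all windows (3.18%). The AP-1 site TGAGTCA, also on both strands, was in 1 of 8 (12.5%), against 1738 of all windows (4.95%), and there it overlaps the core match. Shown are the windows of ME1 and GCLM, which held a match, and of AKR1C1 and NQO1, which held none. Together they cover the genes with large and small changes described further on. They are written 5′ to 3′ on the gene's strand, with matches to the core or its longer form in capitals. ME1 is at chr6:83431002-83431301 (minus strand), GCLM at chr1:93909381-93909680 (minus), AKR1C1 at chr10:4963165-4963464 (plus) and NQO1 at chr16:69726511-69726810 (minus).
ME1: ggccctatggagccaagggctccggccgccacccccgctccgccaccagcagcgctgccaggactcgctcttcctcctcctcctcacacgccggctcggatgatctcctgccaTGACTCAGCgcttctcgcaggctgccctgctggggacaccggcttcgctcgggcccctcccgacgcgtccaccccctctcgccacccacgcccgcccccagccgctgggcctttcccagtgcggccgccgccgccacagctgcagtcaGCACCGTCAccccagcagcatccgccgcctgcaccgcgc
GCLM: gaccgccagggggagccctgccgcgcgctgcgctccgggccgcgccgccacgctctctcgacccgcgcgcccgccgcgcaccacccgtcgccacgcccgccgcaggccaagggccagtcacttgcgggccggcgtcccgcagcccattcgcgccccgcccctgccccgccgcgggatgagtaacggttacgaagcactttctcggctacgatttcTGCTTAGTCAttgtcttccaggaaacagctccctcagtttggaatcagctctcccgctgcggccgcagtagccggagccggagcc
AKR1C1: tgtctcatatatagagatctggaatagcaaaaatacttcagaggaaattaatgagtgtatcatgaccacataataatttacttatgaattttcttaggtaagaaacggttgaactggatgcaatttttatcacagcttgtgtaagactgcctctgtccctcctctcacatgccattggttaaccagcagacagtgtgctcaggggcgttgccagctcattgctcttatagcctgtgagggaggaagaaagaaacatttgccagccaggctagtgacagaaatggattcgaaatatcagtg
NQO1: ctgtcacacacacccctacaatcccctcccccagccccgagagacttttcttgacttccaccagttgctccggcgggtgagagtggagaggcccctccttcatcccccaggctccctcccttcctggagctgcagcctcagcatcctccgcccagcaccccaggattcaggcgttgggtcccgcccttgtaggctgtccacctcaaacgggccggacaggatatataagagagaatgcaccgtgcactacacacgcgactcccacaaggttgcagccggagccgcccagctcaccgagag

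In the ME1 window the match TGACTCAGC lies 137 to 129 bases before the start, and its first 7 letters are also the AP-1 site. A second match, GCACCGTCA, reads on the opposite strand at positions 12 to 20 after the start. The GCLM match, TGCTTAGTCA, holds the longer form on the opposite strand, 35 to 26 bases before the start. One TXNRD1 window, at chr12:104286782-104287081, held the longer form TGCTTTGTCA, and the other, at chr12:104215529-104215828, held the core matches TGACTTCGC and GCTCCGTCA. The windows of NQO1, GCLC, SRXN1 and AKR1C1 held no match. A match is a description of the letters, and the best-known element of NQO1 lies farther upstream than this window.

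The methotrexate libraries stood apart from the other 9 in ways that touch every comparison with them. They held 47459811 to 60591667 counts, against 18714054 to 23859094 in the other libraries, so that 3 counts correspond to 0.0582 to 0.0740 CPM (counts scaled to the library total, after TMM normalisation) in methotrexate and 0.121 to 0.152 CPM elsewhere. Mitochondrial genes took 6.67 to 7.54% of counts in methotrexate and 2.00 to 3.34% in the others. All 9 adipocyte markers had counts in every methotrexate library and summed to 15320 to 15873 CPM, against 30.4 to 37.0 CPM with both agents and 33.7 to 38.1 CPM in control. ADIPOQ, which encodes the adipocyte hormone adiponectin, had 60681, 81674 and 80223 counts in methotrexate libraries, against 1, 0 and 0 counts with both agents and 5, 0 and 0 counts in control libraries. The 10 fibroblast markers summed to 9259 to 10620 CPM in methotrexate, against 932 to 1042 CPM in control, with 9 called higher and FBLN1 lower. FBLN1, most of the control sum, averaged 472 CPM with methotrexate and 877 CPM in control (log2 change 0.01 with epithelial scaling), while the collagen gene COL3A1 averaged 3781 CPM with methotrexate and 1.48 CPM in control. The 7 endothelial markers summed to 9.33 to 10.1 CPM in methotrexate, 4.03 to 5.01 CPM with both agents and 2.21 to 2.83 CPM in control, so that for this list the libraries with both agents also lay above control. The 9 macrophage markers summed to 233 to 245 CPM in methotrexate, against 36.8 to 39.1 CPM in control, a rise carried by MARCO at 195 CPM with methotrexate and 0.143 CPM in control. Of the 5 macrophage markers tested 3 were higher and 2, CSF1R and MSR1, lower with TMM, neither of them lower with epithelial scaling. CD163 had 1, 6 and 4 counts in methotrexate libraries and 0 in each control library, and MRC1 had 0 counts in all 12. The 14 enterocyte markers summed to 4821 to 5240 CPM in methotrexate, against 10702 to 10887 CPM in control, and the 13 of them that were tested were all called lower with methotrexate under TMM. CDX1, the untested one, had 2 counts over the methotrexate libraries and 8 over the other 9, and 13 or 14 of the 14 markers had counts in each library. VIL1, which encodes the brush border protein villin, was at 411, 399 and 334 CPM in methotrexate libraries and 814, 823 and 848 CPM in control libraries. The part of these differences in the results on NRF2 targets was not tested. In bulk RNA, fewer cells of a type and less RNA per cell cannot be told apart.

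**Figure D1:**
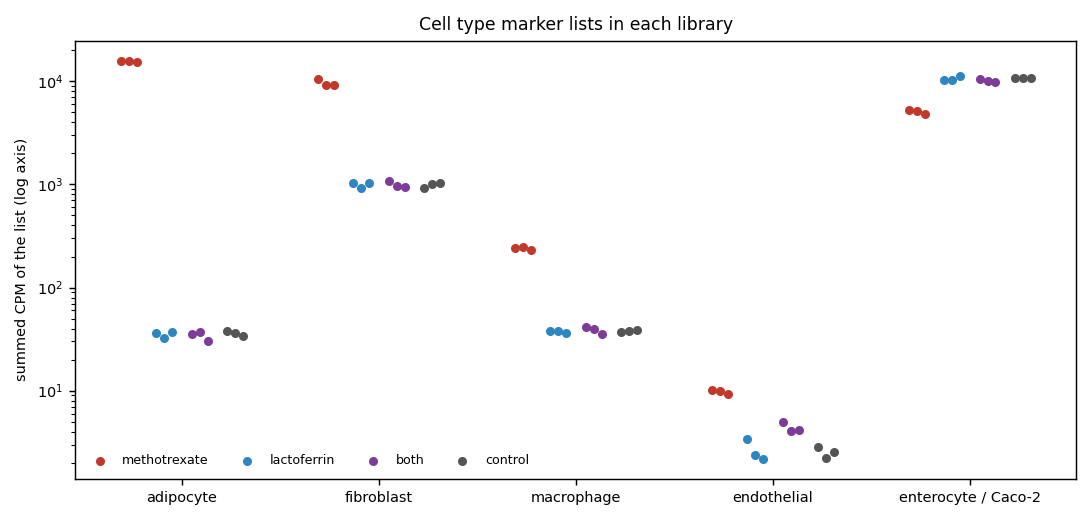
Summed CPM of each cell type's marker list (log axis) in each library, one point a library, for methotrexate, lactoferrin, both agents and control. The methotrexate points lie apart from the rest: adipocyte markers at 15320 to 15873 CPM against 33.7 to 38.1 CPM in control, and enterocyte markers at 4821 to 5240 CPM against 10702 to 10887 CPM in control.

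A 4 h exposure to methotrexate went with more RNA of the heme, NADPH, glutathione, thioredoxin and steroid-reducing enzymes of the set. Of the 9 genes, 6 rose against control, NQO1 fell with TMM scaling but rose with a scaling on epithelial genes, and SRXN1 and AKR1B10 did not pass the test. Among all 16733 genes tested, 64.5% were called in this comparison, 35.4% higher and 29.1% lower, so that a call is common for any gene. The median log2 change was 0.74 over the 9 genes and 0.03 over all genes tested. The libraries of methotrexate and control did not overlap for 7 of the 9 genes, against 71.5% of all genes tested. The submitters' rule of a change over 2-fold with an adjusted p under 0.01 was applied to the edgeR fit used here, not to a DESeq2 fit. Under it 4 of the 9 passed, HMOX1, ME1, GCLM and AKR1C1, against 27% of all genes tested.

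**Figure D2:**
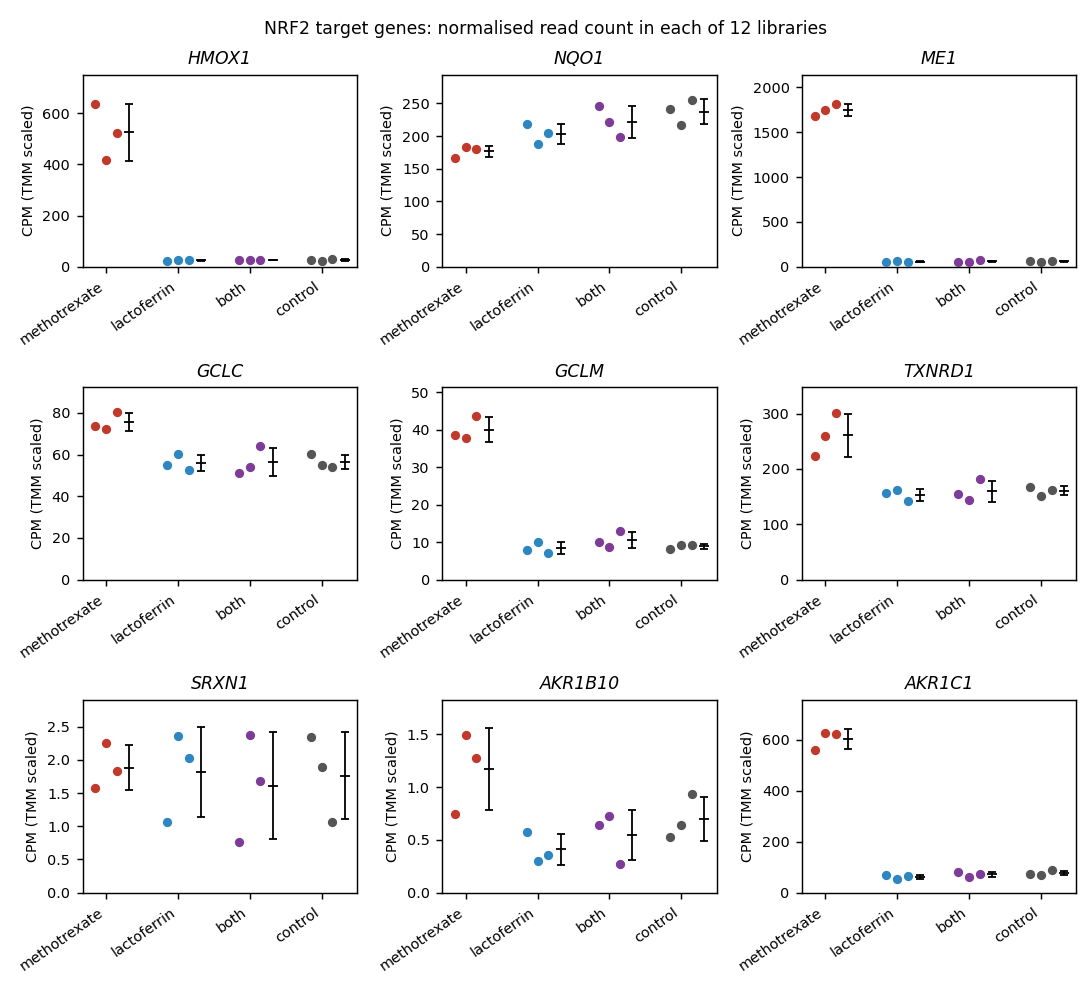
CPM after TMM scaling of each NRF2 target gene in each of the 12 libraries, with the group mean and SD beside the points (n = 3). HMOX1, ME1, GCLM and AKR1C1 lie far higher in the 3 methotrexate libraries than in the other 9, and NQO1 lies lower there than in control, a direction that turns when libraries are scaled on epithelial genes.

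The directions depend in part on the scaling. When libraries were scaled on 39 epithelial genes, mostly of the brush border and cell junctions, instead of TMM, the median change of all genes moved to 0.93 on the log2 scale and 99.1% of called genes were higher, against 54.9% with TMM. All 9 NRF2 targets were then called higher with methotrexate, as were 74.5% of all genes tested, with NQO1 turning to 0.48 (adjusted p = 0.000328).

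HMOX1 (ENSG00000100292; hg19 chromosome 22, 35776354 to 35790207, plus strand) encodes heme oxygenase 1, which opens heme to biliverdin, iron and carbon monoxide. Its level was 637, 417 and 521 CPM in methotrexate libraries, 24.5, 25.4 and 26.7 CPM with lactoferrin, 26.6, 25.7 and 25.7 CPM with both agents, and 26.5, 24.6 and 29.7 CPM in control. The methotrexate libraries were all far above the other 9, whose values overlapped. The log2 change of methotrexate against control was 4.28 ± 0.13 (SE; adjusted p = 2.947e-13), a 19.5-fold rise. Its coefficient of variation was 21.0% among methotrexate libraries and 9.52% among control libraries. HMOX2, the constitutive heme oxygenase, averaged 63.8 CPM with methotrexate and 64.8 CPM in control. Within a library, HMOX1 over HMOX2 per length was 9.72 ± 2.15 with methotrexate and 0.49 ± 0.03 in control (SD, n = 3 each).

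NQO1 (ENSG00000181019; chromosome 16, 69740899 to 69760854, minus strand) encodes a quinone reductase that uses NADPH or NADH. It had 167, 184 and 180 CPM in methotrexate libraries, 218, 188 and 204 CPM with lactoferrin, 246, 221 and 198 CPM with both agents, and 241, 217 and 255 CPM in control. Methotrexate libraries lay below all others, and the remaining groups overlapped. The log2 change against control was -0.43 ± 0.10 (adjusted p = 0.00166) with TMM, and 0.48 with epithelial scaling. Set against VIL1 in the same library, per length, NQO1 was 1.05 ± 0.15 with methotrexate and 0.64 ± 0.05 in control (SD, n = 3 each). VIL1 is one of the 39 epithelial genes, so this ratio is not separate from that scaling, with which 74.5% of all genes tested were higher. The mean ratio to VIL1 was higher with methotrexate than in control for every member, also for SRXN1 (0.0121 against 0.00519).

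ME1 (ENSG00000065833; chromosome 6, 83920108 to 84140797, minus strand) encodes the cytosolic malic enzyme, which makes NADPH while turning malate into pyruvate and is also known as a lipogenic enzyme. It had 1676, 1752 and 1813 CPM in methotrexate libraries, 57.8, 61.6 and 52.7 CPM with lactoferrin, 54.1, 53.8 and 71.4 CPM with both agents, and 63.6, 52.5 and 65.6 CPM in control. Only the methotrexate libraries were high, and the other groups overlapped. With a log2 change of 4.85 ± 0.12 (adjusted p = 3.581e-14), a 28.8-fold rise, ME1 had the largest change of the 9 genes. Its share of the summed CPM of the 9 genes was 49.7 to 52.2% in methotrexate libraries and 9.03 to 9.89% in control libraries, whereas the share of NQO1 was 4.94 to 5.48% in methotrexate and 37.3 to 38.3% in control. The mitochondrial malic enzyme ME2 rose less, with a log2 change of 1.72 ± 0.15 (adjusted p = 6.75e-08), and ME1 over ME2 per length was 30.0 ± 0.80 with methotrexate and 3.42 ± 0.25 in control (SD, n = 3 each).

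GCLC and GCLM encode the catalytic and modifier subunits of glutamate-cysteine ligase, the rate-limiting enzyme of glutathione synthesis. GCLC (ENSG00000001084; chromosome 6, 53362139 to 53481768, minus strand) had 73.5, 72.5 and 80.5 CPM in methotrexate libraries, 54.8, 60.5 and 52.8 CPM with lactoferrin, 51.1, 54.3 and 64.1 CPM with both agents, and 60.5, 55.0 and 54.0 CPM in control. The methotrexate libraries were higher than the rest by a small margin, and the log2 change against control was 0.42 ± 0.10 (adjusted p = 0.002395). GCLM (ENSG00000023909; chromosome 1, 94350761 to 94374966, minus strand) had 38.6, 37.9 and 43.8 CPM in methotrexate libraries, 7.84, 10.1 and 7.10 CPM with lactoferrin, 10.0, 8.73 and 12.9 CPM with both agents, and 8.15, 9.32 and 9.13 CPM in control. Its methotrexate libraries stood well clear of the rest, with a log2 change against control of 2.17 ± 0.15 (adjusted p = 5.172e-09). The subunits therefore changed unequally: GCLC over GCLM per length was 2.43, 2.44 and 2.34 in methotrexate libraries and 9.46, 7.51 and 7.53 in control libraries, with no overlap. This ratio is taken within a library and does not depend on the scaling.

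**Figure D3:**
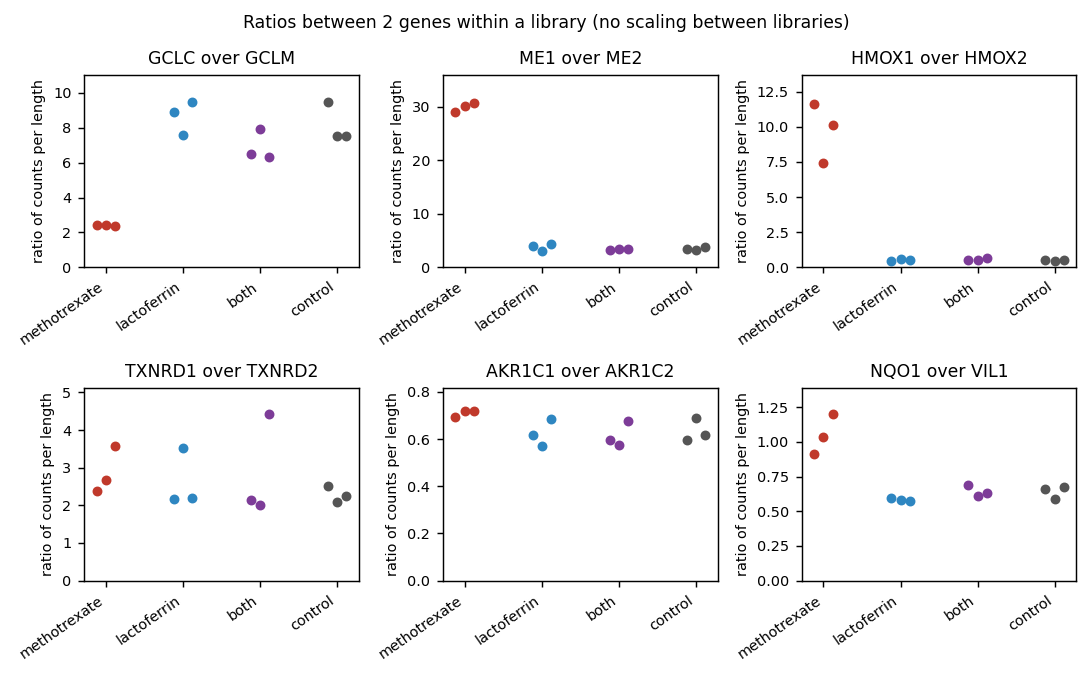
Ratios of paired genes within each library, from counts per length, 1 point a library and 3 libraries a group. GCLC over GCLM averaged 2.40 with methotrexate and 8.17 in control, ME1 over ME2 averaged 30.0 and 3.42, and TXNRD1 over TXNRD2 overlapped between the groups.

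TXNRD1 (ENSG00000198431; chromosome 12, 104609557 to 104744061, plus strand) encodes the cytosolic thioredoxin reductase. It had 223, 259 and 301 CPM in methotrexate libraries, 156, 162 and 142 CPM with lactoferrin, 154, 143 and 181 CPM with both agents, and 167, 151 and 163 CPM in control. The methotrexate libraries were above all others, with a log2 change against control of 0.70 ± 0.12 (adjusted p = 6.951e-05). TXNRD1 over its mitochondrial counterpart TXNRD2, per length, was 2.88 ± 0.63 with methotrexate and 2.29 ± 0.21 in control (SD, n = 3 each), and these values overlapped.

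SRXN1 (ENSG00000271303; chromosome 20, 627259 to 634014, minus strand) encodes sulfiredoxin, which restores overoxidised peroxiredoxins. It had few counts: 64, 116 and 92 in methotrexate libraries, 22, 48 and 40 with lactoferrin, 18, 49 and 37 with both agents, and 49, 47 and 25 in control. As CPM, it was at 1.58, 2.25 and 1.83 in methotrexate libraries and 2.35, 1.89 and 1.06 in control libraries, which overlapped. The log2 difference was 0.11 ± 0.37, with a 95% interval of -0.68 to 0.89 (adjusted p = 0.8166). Changes within that interval remained compatible with these counts. With epithelial scaling the log2 change was 1.00 (adjusted p = 0.02427). The untested second model, ENSG00000234516 at 627270 to 629157, lies inside this gene on the same strand, and the handling of reads that fall in both was not given in the sources used here.

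AKR1C1 (ENSG00000187134; chromosome 10, 4934796 to 5025475, plus strand) encodes an aldo-keto reductase that reduces steroids such as progesterone. It had 559, 628 and 622 CPM in methotrexate libraries, 67.6, 53.6 and 64.6 CPM with lactoferrin, 80.4, 62.7 and 71.5 CPM with both agents, and 73.9, 69.0 and 87.2 CPM in control. The methotrexate libraries were far above the rest, with a log2 change against control of 2.98 ± 0.12 (adjusted p = 6.573e-12), a 7.86-fold rise. AKR1C2, a near-identical paralog, had a log2 change of 2.80 ± 0.13 (adjusted p = 2.54e-11), and AKR1C1 over AKR1C2 per length was 0.71 ± 0.01 with methotrexate and 0.63 ± 0.05 in control (SD, n = 3 each). Reads that fit both genes may have been split between them, so each value alone is uncertain.

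AKR1B10 (ENSG00000198074; chromosome 7, 134212344 to 134226160, plus strand) encodes a reductase of retinal and other aldehydes. Its counts were 30, 77 and 64 in methotrexate libraries, 12, 6 and 7 with lactoferrin, 15, 15 and 6 with both agents, and 11, 16 and 22 in control. Its level was 0.74, 1.49 and 1.27 CPM in methotrexate libraries and 0.53, 0.64 and 0.93 CPM in control libraries, which overlapped through the first methotrexate library. The log2 difference was 0.74 ± 0.38 (95% interval -0.08 to 1.55, adjusted p = 0.1001). Without methotrexate replicate 1 it was 0.97 (adjusted p = 0.04451), and with epithelial scaling 1.64 (adjusted p = 0.0008422). AKR1B15, a close paralog, averaged 1.29 CPM with methotrexate, 0 with lactoferrin, 0.0152 with both agents and 0.0282 CPM in control, and reads shared by the paralogs may be split here too.

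**Figure D4:**
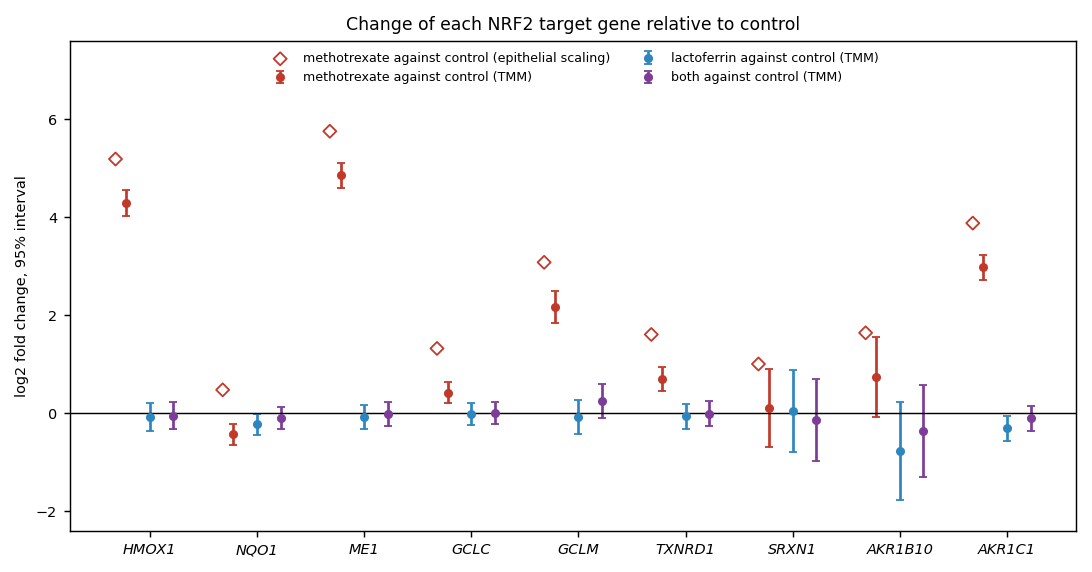
Log2 change of each NRF2 target gene with its 95% interval, from edgeR with TMM scaling, with open diamonds for methotrexate against control under epithelial scaling. Methotrexate against control runs from -0.43 for NQO1, which epithelial scaling turns to 0.48, to 4.85 for ME1, while lactoferrin and both agents against control lie near 0.

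The order of the levels changed with methotrexate. Per kilobase of gene model, ME1 averaged 518 CPM, HMOX1 288, AKR1C1 89.9, TXNRD1 65.7, NQO1 60.7, GCLC 19.8 and GCLM 8.25 CPM in methotrexate libraries, and AKR1B10 and SRXN1 were at 0.73 and 0.70 CPM. In control libraries the order on the same scale was NQO1 at 81.6 CPM, TXNRD1 40.4, ME1 17.97, GCLC and HMOX1 both 14.8, AKR1C1 11.4, GCLM 1.83, SRXN1 0.65 and AKR1B10 0.44 CPM. By level, ME1 ranked 100 of 16733 genes in methotrexate and 3651 in control, and HMOX1 ranked 188 in methotrexate and 4266 in control. NQO1 ranked 1132 in methotrexate and 752 in control. Ranked by signed log2 change against control, with the largest rise on top, ME1 and HMOX1 stood at percentiles 93.7 and 92.8 of all genes tested.

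Spheroids given methotrexate together with lactoferrin were set against those given methotrexate alone. With both agents, the libraries overlapped those of control for all 9 genes, and overlapped those of methotrexate only for SRXN1. The share of all genes tested is not given for these overlaps, so they are not read as particular to the 9 genes. Between methotrexate and control, the libraries did not overlap for 71.5% of all genes tested. Against methotrexate alone, 7 of the 9 genes fell and NQO1 rose with TMM scaling, where 63.2% of all genes tested were called, 34.4% lower and 28.8% higher. With epithelial scaling all 9 were called lower, where 72.3% of all genes tested were lower and 1.27% higher. Under the submitters' rule 4 of the 9 passed, against 26.3% of all genes tested. The log2 change was -4.34 ± 0.13 for HMOX1 (adjusted p = 2.748e-13), -4.87 ± 0.12 for ME1 (3.855e-14), -3.08 ± 0.12 for AKR1C1 (4.739e-12) and -1.92 ± 0.15 for GCLM (2.147e-08). GCLC fell by 0.42 ± 0.10 (0.002486) and TXNRD1 by 0.71 ± 0.12 (6.479e-05). AKR1B10 fell by 1.10 ± 0.40 (adjusted p = 0.02373), a call that was lost without methotrexate replicate 2 (0.1052), methotrexate replicate 3 (0.05931) or both-agents replicate 3 (0.1094). NQO1 rose by 0.33 ± 0.10 (adjusted p = 0.01041) with TMM, but its change was -0.53 with epithelial scaling, and without both-agents replicate 1 it was 0.25 (adjusted p = 0.06479). SRXN1 differed by -0.24 ± 0.38 (adjusted p = 0.5885), with overlapping libraries, and with epithelial scaling by -1.08 (adjusted p = 0.01842).

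The interaction is the change of both agents against lactoferrin minus the change of methotrexate against control. It was called for 7 of the 9 genes, against 46.7% of all genes tested, with 6 lower and NQO1 higher with TMM, where 26.1% of all genes were lower and 20.6% higher. Under the submitters' rule 4 of the 9 passed, against 19.7% of all genes tested. The direction for NQO1 turned to -0.32 (adjusted p = 0.05456) under epithelial scaling, where 6 of the 9 genes and 62.8% of all genes tested were called lower, and the call for GCLC was not stable. The interaction was -4.26 ± 0.18 for HMOX1, -4.79 ± 0.17 for ME1, -2.77 ± 0.17 for AKR1C1 and -1.84 ± 0.22 for GCLM on the log2 scale. For both agents against lactoferrin none of the 9 genes was called, where 3 of 16733 genes were called (0.0179%). The log2 differences ran from -0.18 for SRXN1 (95% interval -1.03 to 0.67) to 0.41 for AKR1B10 (-0.63 to 1.45). For GCLM the difference was 0.34 (-0.01 to 0.68), so changes within these intervals remained compatible with the counts. The comparisons of methotrexate with control and of both agents with methotrexate share the methotrexate libraries, so they are not independent. The interaction uses these libraries too, and it cannot be told apart from their differences in depth and cell type markers described above.

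Neither lactoferrin nor both agents moved a member past the threshold against control. For lactoferrin against control edgeR called 0 of the 9 genes and 0 of 16733 genes (0%), DESeq2 and limma-voom likewise called 0 of the 9, and 2 of the 9 had an unadjusted p under 0.05, as did 628 of all genes. These were AKR1C1, at -0.31 ± 0.12 (unadjusted p = 0.02172, adjusted p = 1), and NQO1, at -0.23 ± 0.10 (unadjusted p = 0.04176, adjusted p = 1). The AKR1C1 libraries with lactoferrin, at 53.6 to 67.6 CPM, were all below those of control, at 69.0 to 87.2 CPM, a pattern that 10.1% of all genes tested showed in one direction or the other.

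The intervals give the sizes of lactoferrin effect that remained compatible with these counts. The 95% interval of lactoferrin against control was -0.36 to 0.21 for HMOX1, -0.33 to 0.17 for ME1, -0.24 to 0.21 for GCLC, -0.43 to 0.26 for GCLM and -0.31 to 0.18 for TXNRD1. It was -0.44 to -0.01 for NQO1 and -0.56 to -0.05 for AKR1C1, which leave out 0 before adjustment over all genes. It was wider for SRXN1, at -0.79 to 0.88, and for AKR1B10, at -1.78 to 0.23, which had few counts. For both agents against control, edgeR, DESeq2 and limma-voom each called 0 of the 9 genes, and 0 of the 9 had an unadjusted p under 0.05, where edgeR called 5 genes of 16733 (0.0299%) and 591 had an unadjusted p under 0.05. There the interval was -0.33 to 0.23 for HMOX1, -0.27 to 0.23 for ME1, -0.32 to 0.12 for NQO1, -0.36 to 0.16 for AKR1C1 and -0.09 to 0.59 for GCLM. It was -0.22 to 0.22 for GCLC, -0.25 to 0.24 for TXNRD1, -0.98 to 0.70 for SRXN1 and -1.31 to 0.58 for AKR1B10. Methotrexate against lactoferrin called 7 of the 9 genes higher, where 63.7% of genes were called, 34.6% higher. This included AKR1B10, at 1.51 ± 0.44 (adjusted p = 0.00535), but not NQO1, at -0.20 ± 0.10 (adjusted p = 0.09402), which epithelial scaling turned to 0.68. With that scaling all 9 were called higher, as were 73.1% of all genes tested.

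Other genes of the pathway were followed in 8 lists of 96 genes, 95 of them tested. With methotrexate against control 51 of the 95 rose and 26 fell (53.7% and 27.4%), against 35.4% and 29.1% of all genes tested, and the median log2 change was 0.39. With lactoferrin or both agents against control, 0 of the 95 were called by edgeR, with 6 and 4 at an unadjusted p under 0.05. Under epithelial scaling more genes were called higher in 7 of the 8 lists, and 1 gene of the glutathione list and 1 of the phase 2 list were called lower. With that scaling 74.5% of all genes tested were higher and 0.711% lower, and the lists' counts stand against this share.

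**Figure D5:**
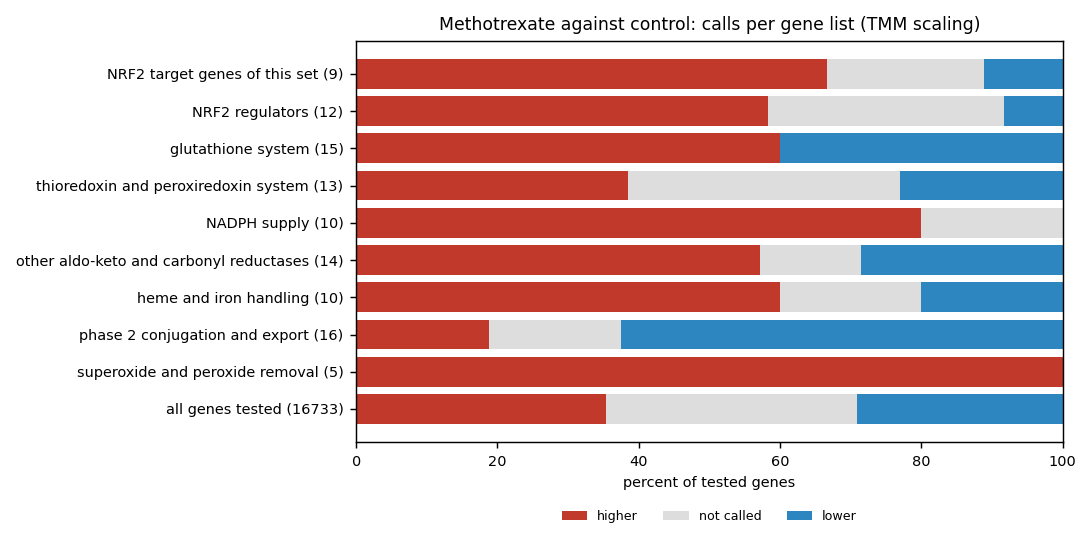
Percent of tested genes called higher, not called or called lower for methotrexate against control with TMM scaling, as stacked bars for the NRF2 target set, the 8 pathway lists and all 16733 genes tested (genes per bar in brackets). All 5 genes of the superoxide and peroxide list are higher, and the phase 2 list has 3 of 16 higher and 10 lower, which epithelial scaling turns to 7 higher and 1 lower.

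Among the regulators, 7 of 12 rose and 1 fell, and with epithelial scaling 11 rose and none fell, where 74.5% of all genes tested rose. NFE2L2 itself had a log2 change of 0.30 ± 0.12 (adjusted p = 0.04674), and KEAP1 differed by -0.27 ± 0.15 (adjusted p = 0.1383). SQSTM1, an autophagy receptor that binds KEAP1, averaged 785 CPM with methotrexate and 173 CPM in control (log2 change 2.18 ± 0.08, adjusted p = 3.04e-12). MAFF and MAFK, small MAF partners of NRF2, changed by 3.02 ± 0.15 and 1.08 ± 0.13, and BACH2, a repressor of related elements, averaged 1.57 CPM with methotrexate and 0.0677 CPM in control. NFE2L2 and KEAP1 were named for their role, after their values were known.

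In the NADPH list 8 of 10 rose and none fell, and all 10 rose with epithelial scaling, where 74.5% of all genes tested rose. The changes were 0.97 ± 0.08 for PGD, a dehydrogenase of the pentose phosphate pathway, 1.59 ± 0.08 for TALDO1, transaldolase, and 2.29 ± 0.15 for the mitochondrial malic enzyme ME3. In the glutathione list 9 of 15 rose and 6 fell, with 12 and 1 under epithelial scaling. The genes named by lowest p all rose: the peroxidases GPX8 and GPX4, by 4.94 ± 0.31 and 1.54 ± 0.13, and the glutaredoxins GLRX and GLRX2, by 2.35 ± 0.12 and 1.16 ± 0.12. The 6 that fell with TMM were GSS, GSR, GGT1, SLC3A2, GPX2 and GPX3, named here after their values were known. In the thioredoxin list 5 of 13 rose and 3 fell, and all 13 rose with epithelial scaling, against the same 74.5% of all genes tested. SESN2, a stress-induced sestrin, changed by 2.50 ± 0.15 and SESN1 by 0.52 ± 0.10, while TXNIP, an inhibitor of thioredoxin, changed by 1.44 ± 0.19 and the peroxiredoxin PRDX6 by 0.40 ± 0.08.

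In the list of other aldo-keto and carbonyl reductases 8 of 14 rose and 4 fell, with 11 and 0 under epithelial scaling. AKR1B1 changed by 2.75 ± 0.16 and NQO2 by 1.88 ± 0.10, and CBR3 averaged 20.0 CPM with methotrexate against 0.169 CPM in control. In the heme and iron list 6 of 10 rose and 2 fell, and all 10 rose with epithelial scaling, where 74.5% of all genes tested rose. BLVRA, which turns the biliverdin made by heme oxygenase into bilirubin, changed by 3.59 ± 0.13, FECH, which inserts iron into protoporphyrin to form heme, by 1.64 ± 0.10, and the ferritin chains FTL and FTH1 by 1.00 ± 0.08 and 2.06 ± 0.25. All 5 genes of the superoxide and peroxide list rose, among them SOD2 by 2.53 ± 0.10, SOD3 by 5.47 ± 0.30, CAT by 1.38 ± 0.08 and PXDN by 9.15 ± 0.31, with PXDN at 434 CPM with methotrexate and 0.745 CPM in control.

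The phase 2 conjugation and export list differed, with 3 of 16 higher and 10 lower under TMM and 7 higher and 1 lower under epithelial scaling. MGST1 and EPHX1, a membrane glutathione transferase and an epoxide hydrolase, rose by 3.39 ± 0.11 and 2.29 ± 0.10. ABCC2, an apical conjugate exporter, fell by 1.23 ± 0.10 with TMM and by 0.33 with epithelial scaling. The glutathione transferase GSTA1 fell by 1.02 ± 0.09 with TMM and differed by -0.12 (adjusted p = 0.2826) with epithelial scaling.

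The genes whose levels followed each member most closely were named by Pearson's r of log2 CPM. Over all 12 libraries, which fall into methotrexate and the rest, the closest genes were VASN (r = 0.9988) and HK2 (0.9981) for HMOX1, SETD7 (0.9994) and SORT1 (0.9989) for ME1, and AKR1C2 (0.9977) and PGM1 (0.9972) for AKR1C1. They were ZNF655 (0.9937) and SERINC1 (0.9931) for GCLM, RAI14 (0.9861) and DDX5 (0.9833) for GCLC, and ALAS1 (0.9876) and BZW1 (0.9858) for TXNRD1. NQO1 was closest to SLC25A5 (0.9592) and POLR2C (0.9544), AKR1B10 to SUOX (0.9512) and NDUFS5 (0.945), and SRXN1 to ERICH1 (0.8778) and PPL (0.8256). The first of these values describe mostly the methotrexate difference, as 351 genes had an r over 0.99 with ME1 and 273 with HMOX1.

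Over the 9 libraries outside the group given methotrexate alone, which include those with both agents, other genes were closest, out of 11799 or 11800 candidates. These were UBASH3B (0.9478) and SMG8 (0.9014) for HMOX1, PTTG1 (0.9835) and RAN (0.9803) for NQO1, and CTNNAL1 (0.9648) and FERMT1 (0.9629) for ME1. For the glutathione subunits they were ALG11 (0.9696) and SYNCRIP (0.9676) for GCLC, and SCAF8 (0.9895) and RNF141 (0.9527) for GCLM. TXNRD1 was closest to XRCC5 (0.9767) and LAMTOR3 (0.9758), SRXN1 to FUBP3 (0.9085) and FAM86C1 (0.8929), AKR1C1 to CD9 (0.9643) and MANSC1 (0.964), and AKR1B10 to CPNE1 (0.9737) and C14orf1 (0.9718). Libraries share depth and handling across genes, and these values are given as a description.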

How the data were processed

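Bulk RNA of 12 Caco-2 spheroid libraries, 3 per group, was sequenced as read pairs. Per the submitters' processing notes, CASAVA, STAR and DESeq2 were used with build hg19; versions, annotation, counting program and strand were not given in the sources used here. Whole-number counts for 48162 genes, with hg19 coordinates and gene length, were deposited by the authors, and 15233 rows were 0 throughout.

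From those counts, filterByExpr on the 4 groups left 16733 genes. With R 4.3.3 and edgeR 4.0.16, libraries were scaled by TMM (factors 0.852 to 1.08) and all 12 libraries entered 1 quasi-likelihood model with a mean for each group. The F test was adjusted by Benjamini-Hochberg over all genes tested within each of 7 contrasts, and called under 0.05. Levels are CPM after TMM; ratios use counts per gene length. SE and 95% intervals come from the fit, and floors of 3 counts cover counting error only.

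Alternatives were relative log expression factors, scaling on 39 epithelial genes, no filter, a replicate block, the compared groups alone, leaving out each library, DESeq2 1.42.0 and limma-voom (limma 3.58.1). As a further alternative, the submitters' rule of over 2-fold with adjusted p under 0.01 was applied to the edgeR fit. The scripts were tested on simulated data. Every member is named, with up to 4 genes per pathway list by lowest p over the 4 group means and the 2 genes most like each member. One gene that the rule names is not reported here. Members, lists and tests were chosen with earlier results of these data known.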

Additional observations from a re-analysis of the deposited data

Results flagged for a closer look

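For 7 of the 9 NRF2 targets the interaction was called by edgeR (change of both agents against lactoferrin minus change of methotrexate against control, log2 scale). This interaction was called for 46.7% of all 16733 genes tested, 26.1% lower and 20.6% higher, so that a call is common for any gene. The difference was -4.26 for HMOX1 (adjusted p = 5.666e-11), -4.79 for ME1 (5.187e-12), -2.77 for AKR1C1 (2.986e-09) and -1.84 for GCLM (7.485e-06). It was -0.64 for TXNRD1 (0.004884) and 0.55 for NQO1 (0.00536), where epithelial scaling gave -0.32 (0.05456). For GCLC it was -0.41 (0.0343), and this call was lost without filter (0.05162) and without any one of 7 libraries: methotrexate 3, lactoferrin 1 or 2, both agents 1 or 2, or control 2 or 3 (adjusted p 0.05368 to 0.1003).

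The methotrexate libraries differ from the other 9 in depth, in mitochondrial share and in the markers of adipocytes and enterocytes, and the part of these in the interaction was not tested. All 3 libraries given methotrexate alone share these differences, and the libraries with both agents do not. In this design the interaction cannot be told apart from a difference confined to those 3 libraries.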

How the results depend on the processing

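Under the submitters' rule of over 2-fold with adjusted p under 0.01, applied to the edgeR fit, 4 NRF2 targets passed for methotrexate against control (HMOX1, ME1, GCLM and AKR1C1). Of all genes tested, 27% passed there. For both agents against methotrexate 4 passed, against 26.3% of all genes tested, and for the interaction 4, against 19.7%. Across the alternatives for single genes, 1193 values kept direction and call, 25 lost the call, 5 gained it and 55 changed sign, 52 of them not called to begin with. Of all genes, both agents against control called 5, against 38 without filter, 15 with DESeq2 and 0 with the compared groups alone, with limma-voom or without the methotrexate libraries; lactoferrin against control called 0, against 17 without filter.

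Epithelial scaling turned NQO1 to 0.48 (methotrexate against control), -0.53 (both agents against methotrexate), 0.68 (methotrexate against lactoferrin) and -0.32 (interaction), and gave 0.011 for GCLC (lactoferrin against control), and 0.034 for ME1 and 0.043 for TXNRD1 (both agents against control). The cause was not tested.

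The correlations between libraries did not show a pairing by replicate number. Of 18 same-number pairs 8 correlated over 0.1 (range -0.803 to 0.601), and 3 of 12 libraries correlated best with their own number. Pairs with different numbers ranged from -0.666 to 0.872. Methotrexate 3, lactoferrin 2, both agents 3 and control 1 correlated with each other at 0.351 to 0.872. Each correlated negatively with the remaining libraries of the other groups. The replicate block does not follow this grouping across numbers, and its cause was not tested. All these correlations were taken on differences from the mean of each group of 3, so they cannot exclude a pairing. With the replicate block, the interaction of GCLC had adjusted p = 0.05743 and -0.0031 was found for SRXN1 (lactoferrin against control) and -0.0030 for GCLC (both agents against control); methotrexate against control called 10371 genes with the block and 10791 without, and no other member's call changed. GCLC in both agents against control was -0.0024 with the compared groups alone, -0.0025 without the methotrexate libraries and -0.0041 with limma-voom.

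Leaving out 1 library at a time gave these ranges for values that changed sign, all not called in the fit of all libraries. Interaction: AKR1B10 -0.58 to 0.0077, SRXN1 -0.67 to 0.061. Lactoferrin against control: GCLC -0.070 to 0.041, GCLM -0.25 to 0.016, SRXN1 -0.22 to 0.32. Both agents against control: AKR1C1 -0.19 to 3.932e-05, GCLC -0.10 to 0.068, HMOX1 -0.11 to 0.022, ME1 -0.17 to 0.049, SRXN1 -0.53 to 0.21, TXNRD1 -0.11 to 0.062. Both agents against lactoferrin: GCLC -0.090 to 0.079, HMOX1 -0.0070 to 0.056, ME1 -0.088 to 0.13, SRXN1 -0.57 to 0.16, TXNRD1 -0.040 to 0.13. SRXN1 ran from -0.16 to 0.35 for methotrexate against control, -0.22 to 0.29 for methotrexate against lactoferrin and -0.63 to 0.11 for both agents against methotrexate. SRXN1 and AKR1B10 had 6 to 116 counts a library, which limits both.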

Other observations

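Among the 9 libraries outside the group given methotrexate alone, both-agents replicate 3 had the highest level of ME1 (71.4 CPM), GCLC (64.1 CPM), GCLM (12.9 CPM) and TXNRD1 (181 CPM). It also had the lowest level of AKR1B10 (0.274 CPM). Its NQO1 level, 198 CPM, was the lowest of the 3 libraries with both agents. In lactoferrin replicate 2, NQO1 and AKR1C1 were at 188 and 53.6 CPM, the lowest of these 9 libraries for each gene. Lactoferrin replicate 2 and methotrexate replicate 3 also had the highest ME1, GCLC, GCLM and TXNRD1 of their own groups. Control replicate 1 had the highest GCLC and TXNRD1 of control, but not the highest ME1 or GCLM. Over 5000 genes, as differences from group means, lactoferrin replicate 2 and both-agents replicate 3 correlated at r = 0.872.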
